A study of Mus musculus with 12 samples.

Results

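The mitochondrial genome of the mouse encodes 37 genes, and all 37 (13 mRNA, 2 rRNA and 22 tRNA genes, recognised by a symbol starting with mt-) were among the 22801 genes measured in mature mouse eggs. In immature oocytes, 3 of them, mt-Co1, mt-Rnr1 and mt-Ts1, were among the 3475 genes that the authors' deposited table holds for that stage. That table holds only genes with an unadjusted p under 0.05 and a difference of over 2-fold, so a gene missing from it was not selected, which is not a measurement of no change.

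The study sequenced RNA from pools of 15 oocytes of C57BL/6 females at postnatal day 35. The control group (WT) had the genotype Lsm14bfl/fl, that is, floxed alleles of Lsm14b without Cre. The knockout group (CKO) had the genotype Lsm14bfl/fl-Gdf9-Cre, in which the Gdf9 promoter drives Cre recombinase in oocytes from early follicles onward. Lsm14b encodes an RNA-binding protein of cytoplasmic ribonucleoprotein granules. Both genotypes carry the floxed alleles. Oocytes of each genotype were collected either as immature GV (germinal vesicle) oocytes, arrested in prophase, or as mature eggs arrested in metaphase II (MII). Each of these 4 groups held 3 biological replicates. The labels do not say whether replicates came from separate animals, so p-values measure the spread between these tubes.

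Mitochondrial DNA is transcribed from both strands into long precursors that span several genes. Most mRNAs and rRNAs are separated by tRNA genes, and the precursor is cut at the ends of these tRNAs by the mitochondrial RNase P and by the ELAC2 nuclease. The mRNAs encode core subunits of respiratory complexes I, III and IV and of the ATP synthase (complex V), the rRNAs form the mitochondrial ribosome, and the tRNAs decode its messages. The oocyte holds an unusually large stock of mitochondria and passes it to the embryo. In the GENCODE M21 annotation of GRCm38, 12 mRNA, 2 rRNA and 14 tRNA genes lie on the strand written as plus, and mt-Nd6 and 8 tRNA genes lie on the other. The build used by the authors is not given in the sources used here, so positions are those of this annotation.

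The tRNA genes with the lowest adjusted p at MII in the authors' deposited table lie in 2 clusters, and their sequences are shown because the tRNA results turn on them. The first cluster holds the tRNAs for isoleucine (mt-Ti, chrM:3706-3774), glutamine (mt-Tq, chrM:3772-3842, minus strand) and methionine (mt-Tm, chrM:3845-3913), between mt-Nd1 and mt-Nd2. The second holds those for glycine (mt-Tg, chrM:9391-9458) and arginine (mt-Tr, chrM:9808-9875), on either side of mt-Nd3. The serine tRNA mt-Ts1 (chrM:6870-6938, minus strand) is shown because it is the 1 tRNA gene in the GV table. Capitals mark the anticodon, in the RNA-sense strand of the GENCODE transcript, written with T.
mt-Ti: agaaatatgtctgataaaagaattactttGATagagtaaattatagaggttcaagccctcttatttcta
mt-Tq: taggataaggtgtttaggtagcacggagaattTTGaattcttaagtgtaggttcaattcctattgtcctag
mt-Tm: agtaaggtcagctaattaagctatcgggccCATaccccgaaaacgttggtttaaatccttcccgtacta
mt-Tg: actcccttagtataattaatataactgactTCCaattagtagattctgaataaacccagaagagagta
mt-Tr: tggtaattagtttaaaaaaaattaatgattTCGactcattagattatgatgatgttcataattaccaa
mt-Ts1: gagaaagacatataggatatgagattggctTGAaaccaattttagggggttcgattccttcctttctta

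Genes of this compact genome share bases, which limits how reads can be assigned. The reading frames of mt-Atp8 and mt-Atp6, both subunits of the ATP synthase, share 43 bases, and those of the complex I subunits mt-Nd4l and mt-Nd4 share 7, shown in capitals with 20 bases on either side (chrM:7907-7989 and chrM:10147-10193, plus strand).
mt-Atp8 and mt-Atp6: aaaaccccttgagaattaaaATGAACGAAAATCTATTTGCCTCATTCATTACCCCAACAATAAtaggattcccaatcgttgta
mt-Nd4l and mt-Nd4: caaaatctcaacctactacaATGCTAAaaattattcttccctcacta
The genes mt-Ti and mt-Tq share 3 bases on opposite strands, as do mt-Co1 and mt-Ts1, while mt-Nd5 and mt-Nd6 share 14 on opposite strands. Whether the counting used strand is not given in the sources used here, so reads of such pairs cannot be told apart, and a read in a tRNA gene may come from an uncut precursor as well as from a mature tRNA.

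The MII libraries held 88494525 to 124872889 counted reads in WT and 23077585 to 40530314 in CKO. Lsm14b was at 10643 to 11641 normalized counts in WT and 822 to 982 in CKO at MII, and at 18816 to 30132 and 1273 to 1601 at GV, so every library had the Lsm14b level its label implies. WT replicate 3 at MII stood apart. Its Spearman correlations across genes with the other 5 libraries were 0.847 to 0.877, against 0.899 to 0.940 among those 5. The gene models CT010467.1 and Gm42418, which take reads of cytoplasmic ribosomal RNA, held 24.3% and 5.21% of its reads, against 6.56% to 11.8% and 0.482% to 1.25% in the other 5. Counts, medians and the members that move most are therefore given with and without this library. The 10 oocyte markers, led by Gdf9, summed to 9495 to 9937 RPM (reads scaled to the library's total) in WT and 10694 to 13191 in CKO. Every CKO library thus lay above every WT library for this sum. The 12 of 16 cumulus and granulosa markers in the table summed to 48.0 to 81.4 in WT and 55.0 to 81.5 in CKO, with none of the 12 at 0 throughout, and the 8 of 11 theca, stroma and endothelium markers summed to 58.7 to 91.4 and 73.9 to 84.1. The 4 of 10 blood and immune markers in the table, led by C1qb, summed to 17.5 to 35.3 in WT and 3.63 to 4.12 in CKO, and the part of these cells in the results below was not tested. In pools of oocytes, fewer mitochondria and less RNA per mitochondrion cannot be told apart.

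At GV, all 3 mitochondrial genes in the table were higher in oocytes lacking Lsm14b, each by slightly over 2-fold. The mRNA mt-Co1 encodes the catalytic subunit of cytochrome c oxidase (complex IV). It stood at 43381, 38432 and 36211 normalized counts in WT replicates 1, 2 and 4 and at 81277, 106575 and 79722 in CKO replicates 1, 2 and 4. The lowest CKO library was 1.84 times the highest WT library. The rRNA gene mt-Rnr1 encodes the 12S RNA of the small mitochondrial ribosomal subunit. It stood at 2623, 2375 and 2274 normalized counts in WT and at 5360, 6618 and 4690 in CKO. For both genes the CKO libraries lay well clear of the WT libraries but spread more widely. The SD was 15075 in CKO against 3670 in WT for mt-Co1, and 979 against 180 for mt-Rnr1. The tRNA gene mt-Ts1 stood at 298, 321 and 149 normalized counts in WT and at 501, 695 and 549 in CKO, again without overlap but from only 120 to 897 reads.

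The authors' deposited table gave log2 fold changes of 1.18 (SE 0.15) for mt-Co1, 1.20 (SE 0.18) for mt-Rnr1 and 1.18 (SE 0.40) for mt-Ts1. Its adjusted p-values were 1.13e-12, 6.52e-10 and 0.0153. These 3 of 37 genes (8.11%) compare with 4.96% of the 21462 genes that the table's adjusted p-values imply were tested, which were called higher at the same thresholds. No mitochondrial gene was among those lower. The count for the members is therefore near the background. The 3 genes lie just past the 2-fold limit of the table, and the values of the other 34 at GV were not analysed here. The ratio of mt-Co1 to mt-Rnr1 counts does not depend on how libraries were scaled. It was 15.9 to 16.5 in WT and 15.2 to 17.0 in CKO, so the groups overlapped and the 2 transcripts stood in nearly the same proportion in all 6 libraries. The ratio of mt-Co1 to mt-Ts1 was 120 to 243 in WT and 145 to 162 in CKO and overlapped too.

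**Figure D1:**
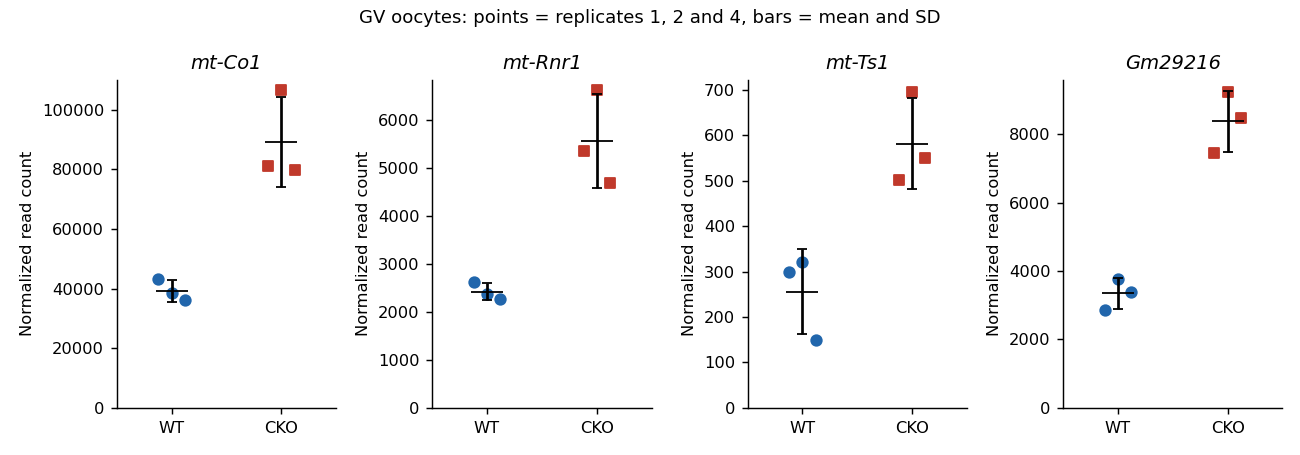
Normalized read counts (linear axes from 0) in GV oocytes for the 3 mitochondrial genes of the GV table and for Gm29216, a nuclear copy of part of mt-Co1. Each point is a library, and bars give the mean and SD of 3 libraries; every CKO library lies above every WT library in all 4 panels, and the table held only genes selected for a difference.

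At MII, mitochondrial transcripts other than mt-Rnr2 tended to be lower in CKO, but none passed the test. Limma on log2(normalized count + 1) called 0 of 37 members at an adjusted p under 0.05, against 0.991% of the 20388 tested genes lower and 0.52% higher. At an unadjusted limma p under 0.05, 9 of 37 members were lower and none higher, against 9.28% of all genes lower. Without WT replicate 3 only 2 of 37 were lower at that limit and none higher, against 12.3% of all genes lower. The limma log2 difference was below 0 for 35 of 37 members, as it was for 53.5% of all genes, and the exceptions were mt-Rnr2 and mt-Tf. Members share precursors and moved together between libraries, so counts of members are not counts of independent genes. The median log2 difference was -0.91 over the 13 mRNAs and -1.42 over the 22 tRNAs, beside -0.11 over all tested genes. Without CKO replicate 2 these medians were -0.55, -0.86 and -0.10. Without WT replicate 3 they were -0.37, -0.82 and -0.15, with 32 of 37 members below 0 and 0 called, while 3.06% of all genes were called lower and 1.3% higher.

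The 2 genotypes' libraries did not overlap for 13 of 37 members (35.1%), all lower in CKO, whereas every CKO library lay below every WT library for 12% of tested genes and above every WT library for 10.4%. With WT replicate 3 set aside the 3 CKO libraries lay below the other 2 WT libraries for the same 13 members, against 21.8% of tested genes. That count could not change, because WT replicate 3 was the highest WT library for all 37 members. The CKO libraries lay above the other 2 WT libraries for 2 members, mt-Rnr2 and mt-Tf, against 15.6% of tested genes. The 13 were the mRNAs mt-Co3, mt-Nd3 and mt-Nd4l and the tRNAs mt-Ti, mt-Tq, mt-Tm, mt-Tc, mt-Td, mt-Tg, mt-Tr, mt-Th, mt-Ts2 and mt-Tl2. Of these, mt-Co3, mt-Tg, mt-Nd3, mt-Tr and mt-Nd4l are 5 neighbours in a row (chrM:8607-10173), mt-Ti, mt-Tq and mt-Tm are 3 (chrM:3706-3913), and mt-Th, mt-Ts2 and mt-Tl2 are 3 (chrM:11546-11741). The authors' deposited table put 5 of 37 members (13.5%), all tRNAs, below an adjusted p of 0.05 and lower, against 6.94% of its genes, and none higher, against 4.6%. It marked 16 of 37 as down at an unadjusted p under 0.05 and over 2-fold, against 8.37% of its genes, and none as up. Its calls and limma's therefore differ for mt-Ti, mt-Tq, mt-Tm, mt-Tg and mt-Tr. With limma array weights, these 5 and mt-Nd4l, mt-Nd3 and mt-Co3 passed, 8 of 37 (21.6%) beside 9.28% of all genes lower. The weights were 0.984, 4.37 and 0.198 for WT replicates 1, 2 and 3, so replicate 2 carried most of the WT weight.

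**Figure D2:**
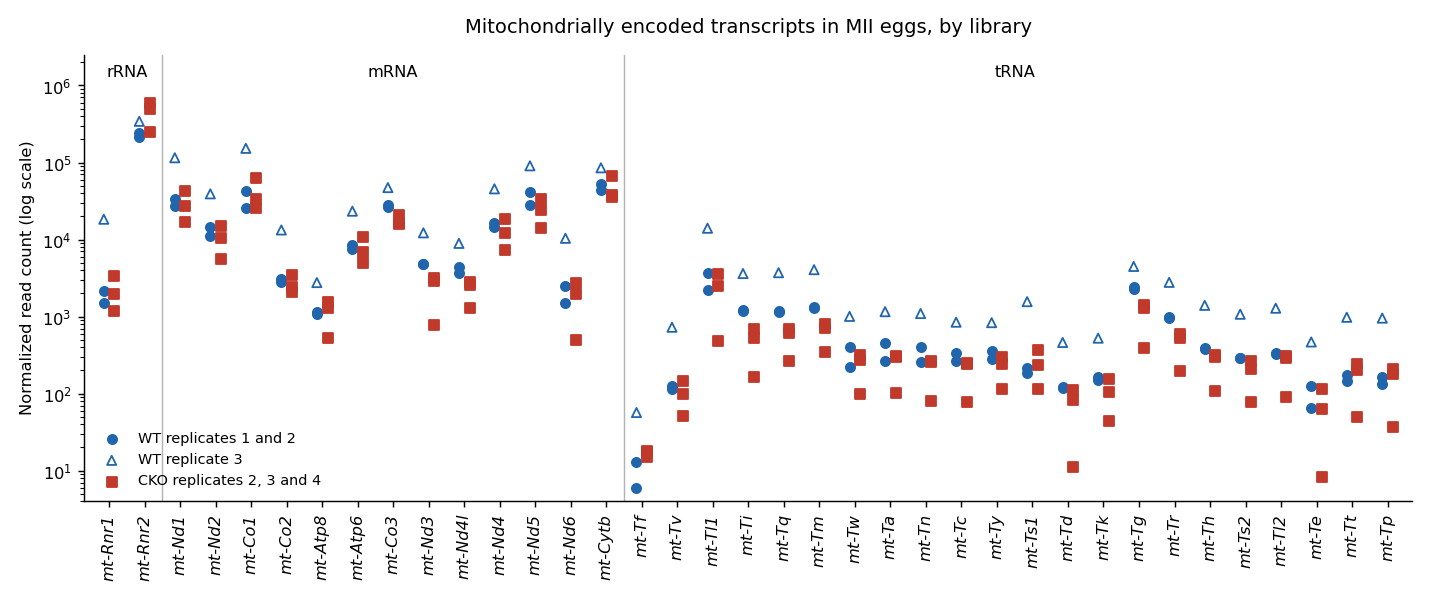
Normalized read counts on a log axis for the 37 mitochondrial genes in the 6 MII libraries, grouped as rRNA, mRNA and tRNA and in genome order within each group. WT replicate 3 (open triangles) is the highest library for 36 of 37 genes, the exception being mt-Rnr2, and CKO replicate 2 is the lowest for 33.

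The WT libraries spread widely for the mitochondrial genes. WT replicate 3 was the highest WT library for 37 of 37 members and the highest of all 6 for 36. It exceeded the mean of WT replicates 1 and 2 by 1.50-fold for mt-Rnr2 to 10.01-fold for mt-Rnr1, with a median of 3.24-fold over the members, while the same ratio had a median of 0.797 over all tested genes. CKO replicate 2 was the lowest of all 6 libraries for 33 members. This excess in WT replicate 3 went together with its higher share of CT010467.1 and Gm42418, and the part of either in the mitochondrial values was not tested.

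Of the 7 complex I subunits, mt-Nd3 and mt-Nd4l had the largest limma log2 differences between the genotypes. The mRNA mt-Nd3 stood at 4853, 4752 and 12224 normalized counts in WT replicates 1, 2 and 3 and at 772, 3183 and 2886 in CKO replicates 2, 3 and 4. The groups did not overlap, and the limma log2 difference was -1.77 (SE 0.57, adjusted p = 0.164), or -1.32 (SE 0.71, adjusted p = 0.396) without WT replicate 3 and -1.11 without CKO replicate 2. Its neighbour mt-Nd4l stood at 3705, 4407 and 8922 in WT and at 1309, 2585 and 2821 in CKO, again without overlap. The limma log2 difference of mt-Nd4l was -1.31 (SE 0.42, adjusted p = 0.164). It was -0.93 (adjusted p = 0.288) without WT replicate 3 and -0.96 without CKO replicate 2. The other 5 subunits had overlapping libraries. For mt-Nd5 the values were 28249, 41096 and 90583 in WT and 14206, 24012 and 33252 in CKO, and the limma log2 difference was -1.07, or -0.60 without WT replicate 3. The mRNA with the highest WT mean per kilobase, mt-Nd1, was at 27314, 33855 and 115273 in WT and at 16746, 27324 and 42100 in CKO. Its log2 difference went from -0.82 (SE 0.55, adjusted p = 0.497) to -0.18 (SE 0.44, adjusted p = 0.838) without WT replicate 3. Without that library the log2 differences of mt-Nd2 and mt-Nd4 went from -0.94 and -0.90 to -0.41 and -0.37. The 1 mRNA of the other strand, mt-Nd6, was at 1480, 2527 and 10386 in WT and at 497, 1988 and 2760 in CKO, with a limma log2 difference of -1.28 (SE 0.77, adjusted p = 0.448). That difference was -0.47 (adjusted p = 0.776) without WT replicate 3 and -0.53 without CKO replicate 2.

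Of the mRNAs of complexes III, IV and V, mt-Co3 alone had groups that did not overlap. The complex IV subunit mt-Co3 stood at 27873, 26511.5 and 47276 normalized counts in WT and at 16278, 15822 and 20593 in CKO. All 3 CKO libraries lay below all 3 WT libraries, and the limma log2 difference of -0.91 (SE 0.31, adjusted p = 0.191) became -0.64 (SE 0.17, adjusted p = 0.131) without WT replicate 3. That was the lowest adjusted p of any member in the latter fit. For mt-Co1 the MII values were 25571, 42476 and 152866 in WT and 25774, 33408 and 62224 in CKO. They overlapped, and the log2 difference of -0.54 (SE 0.61, adjusted p = 0.638) changed sign to 0.19 (SE 0.48, adjusted p = 0.842) without WT replicate 3. The gene mt-Co2 had 2805, 3102 and 13321 in WT and 2098, 2405 and 3439 in CKO, and its limma log2 difference was -0.91 with all 6 libraries and -0.19 without WT replicate 3. Cytochrome b, mt-Cytb, which is the mitochondrial subunit of complex III, was at 43345, 53200 and 85387 in WT and at 35872, 37821 and 66610 in CKO, with a log2 difference of -0.37 (SE 0.37, adjusted p = 0.630), the nearest to 0 of the 13 mRNAs in that fit, or -0.10 without WT replicate 3. For the ATP synthase subunits the limma log2 differences were -0.68 (SE 0.46) for mt-Atp6 and -0.58 (SE 0.51) for mt-Atp8, and -0.17 and -0.15 without WT replicate 3.

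**Figure D3:**
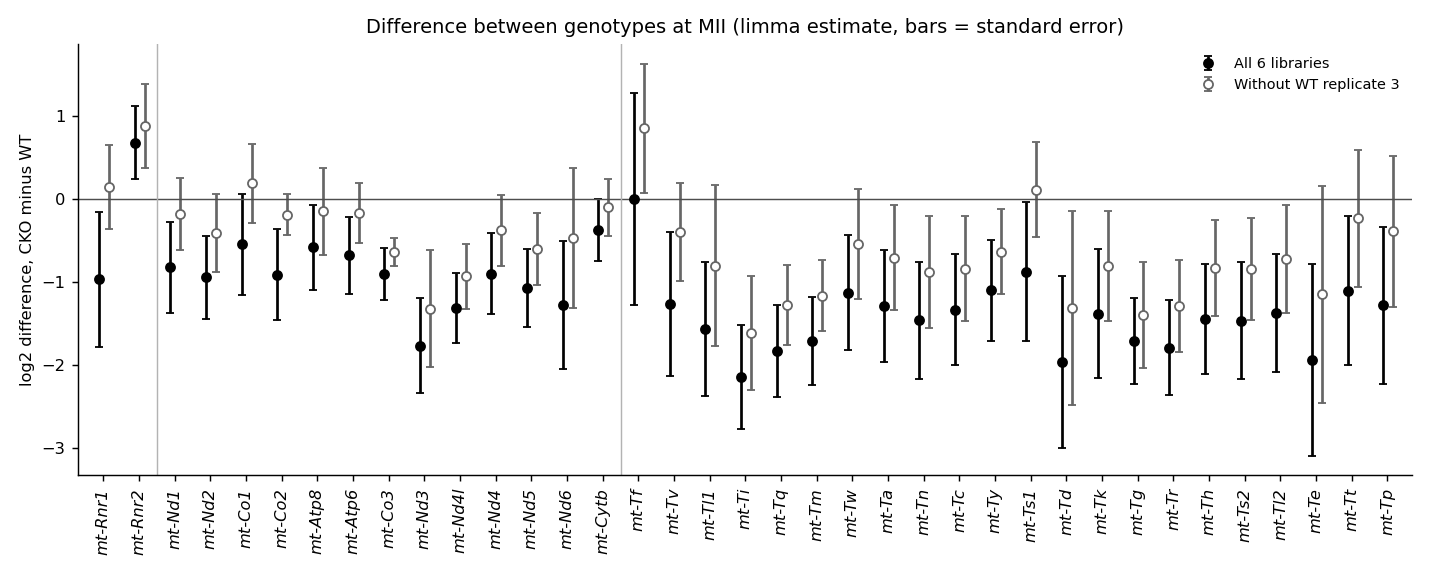
Limma log2 difference (CKO minus WT, linear axis) at MII for each mitochondrial gene, with all 6 libraries (filled) and without WT replicate 3 (open), bars giving the standard error, in the order rRNA, mRNA, tRNA. Without the library 37 of 37 estimates lie higher, and mt-Co1, mt-Rnr1 and mt-Ts1 then lie above 0 with mt-Rnr2 and mt-Tf.

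Levels are compared between mRNAs as normalized counts per kilobase of gene. In both WT replicate 1 and WT replicate 2 mt-Cytb was highest, at 37889 and 46504 per kilobase, and it was highest in all 3 CKO libraries too (31357, 33061 and 58225). In WT replicate 3 mt-Nd1 (120452) and mt-Co1 (98942) came first and mt-Cytb (74639) came next. The lowest levels per kilobase were those of mt-Nd6 and mt-Co2 in WT replicates 1 and 2 and in CKO replicates 3 and 4, of mt-Nd6 and mt-Nd3 in CKO replicate 2, and of mt-Atp8 and mt-Co2 in WT replicate 3. Highest and lowest differed 8.89-fold to 13.3-fold in 5 libraries and 32.7-fold in CKO replicate 2. On the mean of each genotype, mt-Nd1 (61457 per kilobase), mt-Cytb (53011), mt-Co1 (47662) and mt-Co3 (43223) led in WT. Within each WT library mt-Cytb lay above mt-Co3 and mt-Nd1 above mt-Co1, while the other pairs of these 4 changed order between libraries.

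Neither of the 2 rRNAs passed the test at MII. The 16S RNA of the large mitochondrial ribosomal subunit, mt-Rnr2, had the highest level per kilobase of all members (168266 on the WT mean and 281969 on the CKO mean). It stood at 213116, 242905 and 342568 normalized counts in WT and at 249744, 589057 and 499426 in CKO. CKO replicate 2 lay among the WT libraries and the other 2 CKO libraries above all of them. The limma log2 difference was 0.68 (SE 0.45, adjusted p = 0.487), or 0.88 (SE 0.51, adjusted p = 0.402) without WT replicate 3, in which case all 3 CKO libraries lay above both WT libraries. The 12S RNA gene mt-Rnr1 was at 1513, 2155.5 and 18365 in WT and at 1181, 1980 and 3412 in CKO. Its log2 difference of -0.97 (SE 0.82, adjusted p = 0.619) became 0.15 (SE 0.51, adjusted p = 0.893) without WT replicate 3, so its sign rested on that library.

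Proportions within the mitochondrial transcripts do not depend on the scaling between libraries. Some of those examined separated the genotypes and others overlapped. The ratio of mt-Rnr2 to the sum of the 13 mRNAs was 1.07, 0.962 and 0.529 in WT replicates 1, 2 and 3 and 1.89, 3.28 and 1.77 in CKO replicates 2, 3 and 4, so every CKO library was higher. WT replicate 3 had the lowest ratio, so leaving it out could not change this. The ratio of mt-Rnr2 to mt-Rnr1 was 141, 113 and 18.7 in WT and 211, 298 and 146 in CKO, which separated the groups narrowly. The 22 tRNA genes together had 6.27%, 5.81% and 7.29% of the mRNA sum in WT and 2.22%, 5.56% and 3.81% in CKO, lower in every CKO library but narrowly so. Within the mRNAs, mt-Cytb was 1.53, 1.29 and 0.943 times mt-Nd5 in WT and 2.53, 1.58 and 2.003 times in CKO, again separated only narrowly. The complex I subunits made up 45.7% to 49.8% of the mRNA sum in WT and 35.2% to 45.6% in CKO, which touched but did not overlap. In contrast, the share of complex V was 3.80% to 4.41% in WT and 4.14% to 4.55% in CKO, and that of complex IV was 28.2% to 33.0% and 28.8% to 33.4%, both overlapping. The ratios of mt-Nd6 to the other 12 mRNAs and of minus-strand to plus-strand tRNAs overlapped as well, at 0.747% to 1.63% and 26.3% to 29.1% in WT and 0.378% to 1.12% and 28.0% to 37.6% in CKO. These ratios were described with no test over the members, and 3 libraries against 3 cannot give an exact two-sided p below 0.10. How often ratios of other genes separate the genotypes was not worked out. Of single tested genes, 12% had every CKO library below every WT library and 10.4% above. Ratios of 1 gene to another were not among those planned.

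**Figure D4:**
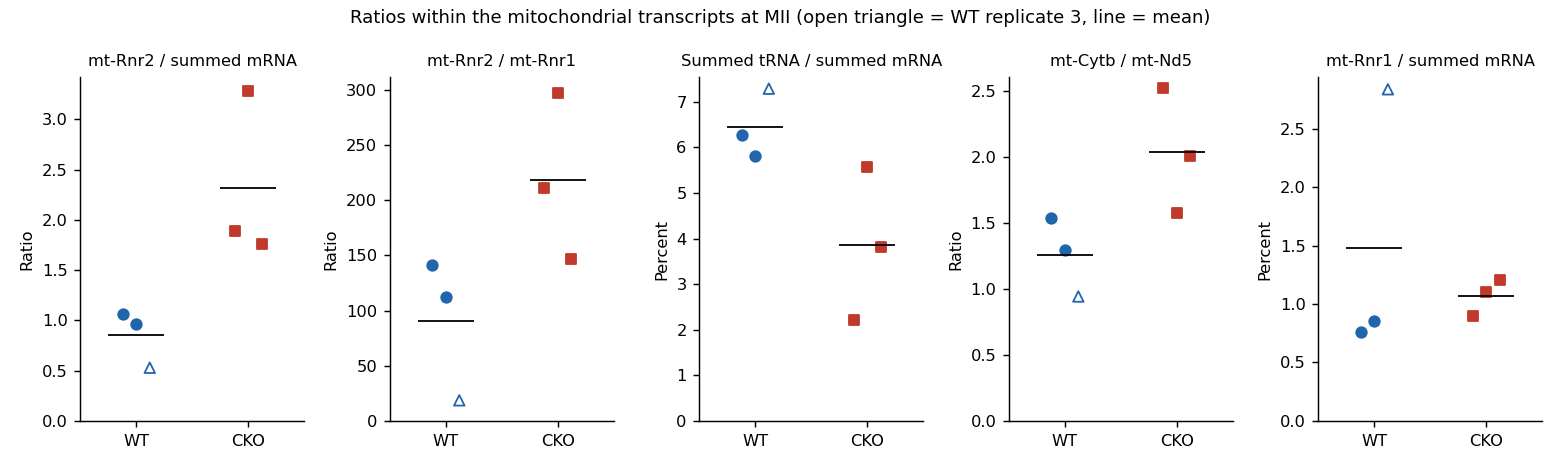
Ratios of summed normalized counts within the mitochondrial transcripts for each MII library, as a ratio or in percent on linear axes from 0, with the line at each group's mean and WT replicate 3 as an open triangle. The groups separate for mt-Rnr2 over mRNA (WT up to 1.07, CKO from 1.77). They separate narrowly for mt-Rnr2 over mt-Rnr1, for tRNA over mRNA and for mt-Cytb over mt-Nd5. They overlap for mt-Rnr1 over mRNA (0.758% to 2.84% in WT, 0.895% to 1.21% in CKO).

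As a share of all counted reads, the mitochondrial transcripts took 0.778%, 0.968% and 1.65% in WT and 0.691%, 1.34% and 1.49% in CKO, which overlapped, with a ratio of the means of 1.04. This ratio was 1.34 without WT replicate 3 and 0.929 with CT010467.1 and Gm42418 left out of the total, so its direction depended on the denominator. The classes differed in direction on the group means. The mRNAs took 0.364%, 0.477% and 1.01% in WT and 0.237%, 0.307% and 0.528% in CKO, and the rRNAs took 0.391%, 0.463% and 0.564% in WT and 0.450%, 1.01% and 0.939% in CKO, overlapping in both cases. The tRNAs took 0.0228%, 0.0277% and 0.0736% in WT and 0.00526%, 0.0171% and 0.0201% in CKO, without overlap. The ratio of the means, CKO over WT, was 0.579 for mRNAs, 1.69 for rRNAs and 0.342 for tRNAs, or 0.850, 1.87 and 0.560 without WT replicate 3. The exact 95% binomial intervals of these shares, which cover counting error only, were 0.271% to 8.54% of the share in width, far less than the spread between libraries.

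Of the 22 tRNA genes, the isoleucine, glutamine and methionine tRNAs had the lowest adjusted p-values in the authors' deposited table. The gene mt-Ti stood at 1214, 1194 and 3622 normalized counts in WT and at 165, 689 and 529 in CKO, from 120 to 7063 reads. Its limma log2 difference of -2.15 (SE 0.62, adjusted p = 0.124) had the lowest adjusted p of the 37 members, and was -1.62 (SE 0.69, adjusted p = 0.291) without WT replicate 3. Its antisense neighbour mt-Tq was at 1158, 1189 and 3716 in WT and at 266, 689 and 620 in CKO. The adjoining mt-Tm was at 1274, 1345 and 4066 in WT and at 344, 810 and 715 in CKO. The 3 genes thus showed the same pattern over the 6 libraries, with CKO replicate 2 lowest and WT replicate 3 highest, and the authors' deposited table gave them log2 fold changes of -2.13, -1.95 and -1.84 with adjusted p-values of 0.0183, 0.0192 and 0.0231. Relative to the mRNA upstream of it, mt-Ti reached 3.14% to 4.44% of mt-Nd1 in WT and 0.987% to 2.52% in CKO, without overlap. This ratio was not planned. It follows from mt-Ti having the lowest log2 difference of the 37 members, against -0.82 for mt-Nd1, and is no separate result.

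Around mt-Nd3, the glycine tRNA mt-Tg was at 2445, 2278 and 4479 normalized counts in WT and at 394, 1405 and 1282 in CKO. The arginine tRNA mt-Tr was at 958, 978 and 2782 in WT and at 198, 603 and 523 in CKO. Neither overlapped, and their limma log2 differences were -1.71 (SE 0.52, adjusted p = 0.136) and -1.79 (SE 0.57, adjusted p = 0.159), against -1.58 and -1.83 in the authors' deposited table, with its adjusted p-values of 0.0438 and 0.0327. Without WT replicate 3 the limma values were -1.40 and -1.28. The tRNA gene with the highest WT mean per kilobase, the leucine tRNA mt-Tl1 between mt-Rnr2 and mt-Nd1, was at 2221, 3652 and 14039 in WT and at 487, 2469 and 3620 in CKO, which overlapped (limma log2 difference -1.57, SE 0.81, adjusted p = 0.370). Its difference was -0.80 without WT replicate 3 and -0.70 without CKO replicate 2. The histidine tRNA mt-Th was at 385, 391 and 1400 in WT and at 107, 301 and 317 in CKO, without overlap, and its limma log2 difference was -1.45, or -0.83 without WT replicate 3 and -0.94 without CKO replicate 2. For mt-Ts1, higher in CKO at GV, the MII values were 183, 215 and 1564 in WT and 116, 235 and 365 in CKO, and its limma log2 difference of -0.87 became 0.12 without WT replicate 3. The phenylalanine tRNA mt-Tf at the start of the precursor had only 7 to 111 reads per library, and its log2 difference was 0.01 (SE 1.28), or 0.86 (SE 0.78, limma adjusted p = 0.568) without WT replicate 3, when every CKO library lay above both WT libraries. The median of the 14 plus-strand tRNAs was -1.46 and that of the 8 minus-strand tRNAs -1.31, or -0.82 and -0.77 without WT replicate 3.

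The 3 genes of the GV table can be set beside their MII values, each stage scaled within its own table. The authors' deposited table gave mt-Co1 1.18 at GV and -0.86 (SE 0.68, adjusted p = 0.484) at MII, mt-Rnr1 1.20 and -1.75 (SE 0.88, adjusted p = 0.202), and mt-Ts1 1.18 and -1.45 (SE 0.89, adjusted p = 0.321). Each of the 3 had overlapping libraries at MII and a sign there that rested on WT replicate 3 in limma. The difference between the stages was not tested. The ratio of mt-Co1 to mt-Rnr1 at MII was 16.9, 19.7 and 8.32 in WT and 21.8, 16.9 and 18.2 in CKO, so WT replicate 3 lay below all 11 other libraries of both stages.

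Nuclear copies of mitochondrial DNA share reads with several members. On chromosome 1, 7 gene models between positions 24611535 and 24616197 (GRCm38) matched 7 mitochondrial genes at 99.7% to 100% identity. Gm10925 matched mt-Atp6 over 678 bases without a mismatch, and its normalized count was 99.2% to 102% of that of mt-Atp6 in each of the 6 MII libraries. Gm28661, a copy of mt-Co2 without a mismatch over 681 bases, had 95.1% to 98.3%, and Gm28437, a copy of mt-Co3, had 78.9% to 96.4%. The 2 copies with 1 mismatch each had lower counts, at 16.6% to 29.2% of mt-Nd3 for Gm28438 and 5.84% to 18.4% of mt-Co1 for Gm29216, which covers 483 bases of it. Gm10222 and Gm28439, copies of mt-Nd4l and of part of mt-Nd4, had 55.8% to 85.8% and 25.5% to 38.5%. Reads of these 7 mitochondrial genes and their copies cannot be told apart from these values. Together the 7 copies took 0.0784%, 0.0875% and 0.170% of reads in WT and 0.0550%, 0.0521% and 0.0859% in CKO, which overlapped. The limma log2 differences of the copies lay between -1.57 for Gm28438 and -0.42 for Gm29216, and none passed (adjusted p from 0.223 to 0.743). At GV, Gm29216 was in the authors' deposited table beside mt-Co1, with a log2 fold change of 1.33 (SE 0.16, adjusted p = 5.41e-14).

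**Figure D5:**
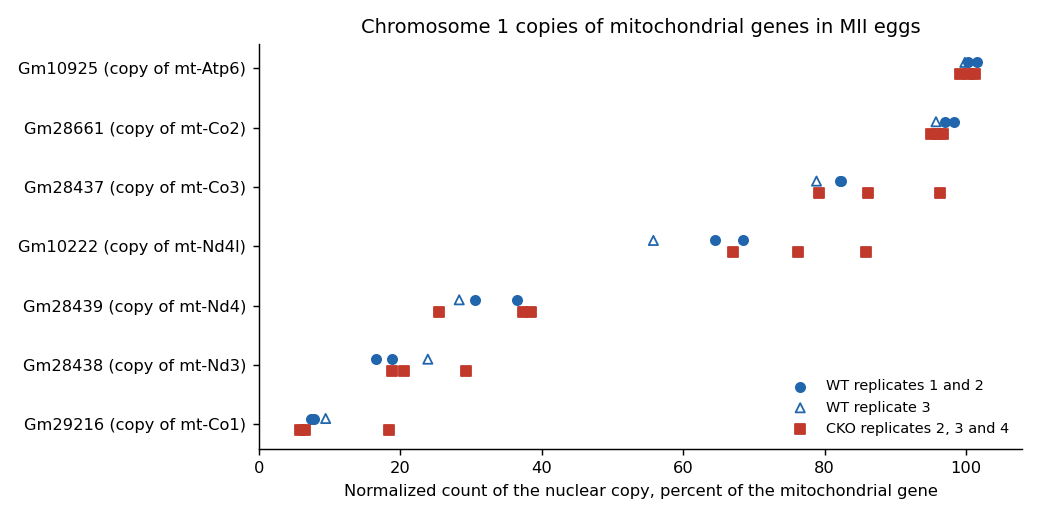
Normalized count of each chromosome 1 copy as a percentage of its mitochondrial gene (linear axis) in the 6 MII libraries, with WT replicate 3 as an open triangle. The copy of mt-Atp6 lies at 99.2% to 102% in every library and the copy of mt-Co1 at 5.84% to 18.4%.

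The nuclear genes that make, process and use mitochondrial RNA were examined in 5 lists. At MII limma called 1 higher and 1 lower of the 87 tested, beside 1.51% of all genes in either direction, and 85 did not pass. In the transcription list, 1 of 10 was higher, none lower and 9 did not pass. The called gene was Mterf2, which encodes a factor of the mitochondrial transcription termination family. It had 0 reads in all 3 WT libraries and stood at 74.3, 96.2 and 114 normalized counts in CKO, at least 55.8-fold higher against a floor of 3 reads per WT library (limma adjusted p = 0.0337). The call was lost when genes with low values were kept and with the replicate number as a block. Polrmt, the mitochondrial RNA polymerase, was at 9009, 7141 and 3802 in WT and at 3200, 2256 and 1043 in CKO, without overlap (limma log2 difference -1.67, SE 0.47, adjusted p = 0.113, or -2.03 and 0.127 without WT replicate 3). Tfb1m, the 12S rRNA methyltransferase, was at 3000, 2894 and 2106 in WT and at 1275, 1337 and 1317 in CKO (log2 difference -1.01, SE 0.30, limma adjusted p = 0.134, or 0.0346 without WT replicate 3). Mterf4 had a mean of 433 ± 89.6 in the controls against 962 ± 88.3 in the knockouts (SD, n = 3 per genotype; limma adjusted p = 0.163).

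Of 24 tested genes of RNA processing and modification, 1 was lower, none higher and 23 did not pass. The called gene was Trnt1, which adds the CCA end to tRNAs. It stood at 5852, 6449 and 5270 normalized counts in WT and at 1128, 2317 and 1380 in CKO (limma log2 difference -1.93, SE 0.34, adjusted p = 0.0280). It did not pass when WT replicate 3 was left out (limma adjusted p = 0.0595). The tRNA modification enzymes Trit1 and Cdk5rap1 had WT means of 228 ± 66.0 and 378 ± 47.3, against CKO means of 950 ± 452 and 946 ± 98.4 (SD, n = 3 per genotype), with limma adjusted p-values of 0.0817 and 0.115, and Cdk5rap1 passed without WT replicate 3 (0.0346). Mettl15, a 12S rRNA methyltransferase, had a WT mean of 387 ± 145 and a CKO mean of 100.4 ± 11.8 (SD, n = 3 per genotype; limma adjusted p = 0.138). None of 18 genes of mRNA stability, polyadenylation and decay passed. Lrpprc, which binds and stabilises mitochondrial mRNAs, was at 624, 613 and 829 in WT and at 1421, 2329 and 3303 in CKO, without overlap (limma log2 difference 1.70, SE 0.39, adjusted p = 0.0663, or 1.84 and 0.0865 without WT replicate 3). The helicase gene Supv3l1 and the genes Angel2 and Ptcd1 had log2 differences of -1.09, -0.86 and 1.04 (limma adjusted p = 0.228, 0.180 and 0.186). None of 14 genes of mitochondrial DNA replication passed, the lowest limma adjusted p being that of the deoxyguanosine kinase gene Dguok (log2 difference -2.24, SE 0.50, adjusted p = 0.0612), followed by Ssbp1, Rnaseh1 and Exog (0.214 to 0.351). None of 21 genes of aminoacyl-tRNA synthesis passed. The isoleucine enzyme gene Iars2 had a WT mean of 13.5 ± 16.8, against a CKO mean of 198 ± 38.0 (SD, n = 3 per genotype; limma adjusted p = 0.113, or 0.0740 without WT replicate 3), and Mars2 and Gars had 0.188 and 0.255. Without any 1 library other than WT replicate 3, limma called 0 genes of the whole table, so the calls of Mterf2 and Trnt1 were lost, and the replicate block ended that of Trnt1 too.

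At GV, 5 of the 91 listed genes were higher and 10 lower in the authors' deposited table, beside 4.96% of implied tested genes higher and 7.89% lower. Polrmt was at 7395, 8218 and 7071 normalized counts in WT and at 2674, 2865 and 2515 in CKO, without overlap (log2 fold change -1.49 in the authors' deposited table, adjusted p = 7.83e-27). Trnt1 was at 12804, 11870 and 11679 in WT and at 4411, 4381 and 4970 in CKO (-1.40 in the authors' deposited table, adjusted p = 1.77e-29). Both were lower in every CKO library. Mterf3, a repressor of mitochondrial transcription, had a WT mean of 417 ± 88.4 and a CKO mean of 1205 ± 225 (SD, n = 3 per genotype). For Hsd17b10, a subunit of the mitochondrial RNase P, these means were 281 ± 33.9 and 705 ± 70.9. Mterf2 and Iars2 were also called higher, with WT means of 18.7 ± 16.2 and 262 ± 114 and CKO means of 202 ± 49.7 and 807 ± 351. The other genes called lower were Mterf1b, Rnaseh1, Dguok, Gtpbp3, Mettl15, Angel2, Mars2 and Sars2, with log2 fold changes from -2.30 for Gtpbp3 to -1.01 for Sars2 in the authors' deposited table.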

How the data were processed

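RNA of 6 GV and 6 MII libraries was analysed, from 1 table per stage. The authors deposited each library's values as the log10 of a normalized count with 1 added, and these were turned back into normalized counts. The authors' own comparison stands beside them per the file headers: a mean signal, a log2 fold change and its error, a test score, and the p-value before and after adjustment. Aligner, genome build and counting tool were not given in the sources used here. In every library 100% of values were whole multiples, within 0.05, of the value of 1 read, which gave reads and size factors; a read counted for 2 genes would enter the totals more than once.

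Because the values are on a log scale, the MII comparison was made with limma (version 3.58.1, R 4.3.3), allowing for a mean-variance trend, on log2(normalized count + 1) in the 6 MII libraries. The 2413 genes with a mean under 1 were left out and p-values were adjusted by Benjamini-Hochberg over 20388 genes. The procedure was tested on simulated data with 200 changed genes and the same variability in every library. It was thus not tested with an outlying library such as WT replicate 3. Folds on this scale understate changes of low genes. The GV table holds selected genes, so no fit was made there. On the reads, limma-voom called 91 genes higher and 80 lower. Nuclear copies were aligned with BLAST 2.17.0 to transcripts of GENCODE M21, the source of all positions and sequences.

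The rule for named genes took every mitochondrial mRNA and rRNA gene, tRNA genes with an adjusted p under 0.05 at MII or among the 8 with the highest mean, Lsm14b, the nuclear copies as a sum, and the 4 genes of each nuclear list with the smallest p at MII. Single copies, other tRNA genes and GV genes of the lists were named after their values were seen. 1 gene of the nuclear lists that the rule takes is not reported here by name. The members and lists were chosen with earlier results of these data known. Other settings tried were the pseudocount, low-value filter, scaling, weights, a 2-fold limit, the replicate number as a block, and each library left out in turn.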

Additional observations from a re-analysis of the deposited data

How the results depend on the processing

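The count of 0 members called at MII by limma in either direction was unchanged with a pseudocount of 0.1 and with low genes kept. It was also unchanged under scaling by library size or by reads outside mitochondrial and rRNA models, and in limma-voom on recovered reads. Over the whole table these fits called 72 to 104 genes higher and 80 to 220 lower. Without WT replicate 3 the count was 0 too, beside 266 genes of the whole table higher and 624 lower. A 2-fold minimum can only remove calls. Without any 1 other library limma called 0 genes of the whole table, so those counts are not particular to the members. Array weights, with most of the WT weight on replicate 2, called 8 members lower and 0 higher, beside 1893 and 1297 of all genes. A fit with the replicate number as a block called 0 members and 0 genes of the whole table. The shared numbers pair only 2 libraries of each genotype, whose deviations correlated at 0.0133 and -0.101, so they are not treated as pairs. In all 14 fits mt-Rnr2 was above 0, and the 32 members other than mt-Rnr2, mt-Tf, mt-Rnr1, mt-Co1 and mt-Ts1 were below 0. The log2 difference of mt-Ti, the member with the lowest adjusted p, ranged from -2.55 to -1.52 without each library. Depth limits mt-Tf, mt-Te and mt-Td, with 6 to 8 reads in the lowest library.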

Other observations

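Lars2, the nuclear gene of the mitochondrial leucyl-tRNA synthetase, took 0.0138%, 0.0239% and 0.114% of reads in WT replicates 1, 2 and 3 at MII and 0.0160%, 0.0113% and 0.0209% in CKO replicates 2, 3 and 4. It was highest in the same library as the mitochondrial genes and as CT010467.1 and Gm42418. Gm42418 took 0.488%, 1.25% and 5.21% in WT replicates 1, 2 and 3. The ratio of the means, CKO over WT, was 0.317 for Lars2 and 0.302 for Gm42418. The part of ribosomal RNA reads in the Lars2 values was not tested. Between neighbours on the precursor, mt-Nd3 reached 17.4%, 17.9% and 25.9% of the mt-Co3 count in WT and 4.74%, 20.1% and 14.0% in CKO, with CKO replicate 2 alone far below the others. The ratio of mt-Nd4l to mt-Nd4 was 25.6%, 27.1% and 19.6% in WT and 17.8%, 21.4% and 15.1% in CKO, and that of mt-Atp8 to mt-Atp6 was 15.2%, 12.8% and 11.8% and 10.7%, 18.6% and 14.2%. Both overlapped.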
